A study of Mus musculus with 32 samples.

Results

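Runx1 binding was compared between Scid.adh.2c2, a mouse pro-T line, and ILC2/b6, a mouse line of group 2 innate lymphoid cells (ILC2). The regions described are all 13664 Runx1 peaks of Scid.adh.2c2 and all 26258 Runx1 peaks of ILC2/b6, 39922 of the 215616 peaks in the 8 deposited lists (Runx1, Runx3, Bcl11b and GATA3 in each line). A peak was called shared when its interval overlapped a Runx1 peak of the other line by at least 1 bp, and line-only otherwise. Each list was made from 2 ChIP-seq libraries of cells with no labelled treatment, fixed with 1 mg/ml DSG and then 1% formaldehyde, and gives 1 set of peaks per line, so shares of peaks have no replicate and are descriptions without a test. Both lines were precipitated with the same anti-Runx1 antibody. RNA-seq of the same lines gave 2 libraries of cells transduced with a Bcl11b guide (sgBcl11b-CFP) and 2 with a control guide (sgControl-CFP) per line. The ILC2/b6 medium held IL-33, IL-7 and IL-2, each at 10 ng/ml, and the Scid.adh.2c2 medium no listed cytokine, so line and culture cannot be told apart. Each line stands for its cell type through 1 culture line, and the labels do not say whether libraries came from separate cultures.

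Runx1 is one of the DNA-binding Runx proteins, which share a DNA-binding domain and the non-DNA-binding partner Cbfb and recognise the core sequence TGTGGT. Runx factors act at promoters and distant enhancers of T-cell genes, as activators or repressors, and Runx3 is the member best known from cytotoxic and innate lymphoid cells. Runx1 binds with GATA3 and Bcl11b at many sites in developing T cells.

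The line labels were set against marker genes in the control libraries. Of 10 T-lineage markers, 9 were at 1 RPKM or more in Scid.adh.2c2 (all but Rag2) and 2 in ILC2/b6 (Lef1 and Bcl11b). Of 10 ILC2 markers, 5 were at 1 RPKM or more in Scid.adh.2c2 (Il13, Il17rb, Rora, Id2 and Gata3) and all 10 in ILC2/b6. Summed over the 6 markers each of B cells, myeloid cells and NK cells, the level was at most 4.23 RPKM in Scid.adh.2c2 and at most 9.76 RPKM in ILC2/b6, and 6 mast cell markers summed to at most 23.5 and 28.8 RPKM. The RNA libraries held 34.7 to 43.7 M reads, at which 3 reads on a 2-kb transcript are worth 0.0343 to 0.0432 RPKM. For the ChIP libraries the depth is unknown.

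Some of the strongest promoter peaks at immune genes were bound in 1 line only, and their sequences show how far the Runx core is present at such starts. For each class, the 3 highest-scoring promoter peaks are shown that lie within 150 bp of the start of a gene on the immune and housekeeping lists, that gene having 1 promoter in the RefSeq table. Each sequence is the 250 bases before the gene's start (RefSeq, GRCm38.p6), read 5′ to 3′ on the gene's strand. Capitals mark TGTGGT or its reverse complement ACCACA. Only this exact form of the core was searched here and below, so variants of it are not marked or counted.

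Peaks of Scid.adh.2c2 only lay at Rag1, the recombinase of antigen receptor genes, Gzma, a granzyme, and Zfpm1, the GATA cofactor Fog1. The Rag1 promoter (GRCm38.p6 chr2:101649533-101649782, minus strand) holds 2 copies of the core, starting 81 and 67 bases before the start. The Gzma promoter (chr13:113100982-113101231, minus strand) holds 1, starting 50 bases before the start, and the Zfpm1 promoter (chr8:122281891-122282140, plus strand) holds none.
Rag1: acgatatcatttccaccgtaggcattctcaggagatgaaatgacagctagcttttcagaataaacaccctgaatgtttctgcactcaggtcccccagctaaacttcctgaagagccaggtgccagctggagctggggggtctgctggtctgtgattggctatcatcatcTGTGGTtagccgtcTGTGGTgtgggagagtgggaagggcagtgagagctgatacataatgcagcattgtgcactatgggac
Gzma: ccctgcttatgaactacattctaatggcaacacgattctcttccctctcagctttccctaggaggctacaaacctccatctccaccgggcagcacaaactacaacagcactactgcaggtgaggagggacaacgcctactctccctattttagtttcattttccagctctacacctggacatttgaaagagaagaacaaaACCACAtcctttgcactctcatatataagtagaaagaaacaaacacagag
Zfpm1: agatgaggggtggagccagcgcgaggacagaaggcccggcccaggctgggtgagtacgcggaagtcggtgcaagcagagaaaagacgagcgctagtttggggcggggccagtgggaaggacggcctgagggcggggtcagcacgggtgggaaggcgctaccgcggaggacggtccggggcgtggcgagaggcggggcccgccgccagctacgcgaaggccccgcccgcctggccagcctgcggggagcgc

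Peaks of ILC2/b6 only lay at Cish, a feedback inhibitor of cytokine signalling, Gzmb, a granzyme, and Dusp6, a phosphatase of the ERK pathway. The Gzmb promoter (chr14:56262335-56262584, minus strand) holds 2 copies, starting 93 and 34 bases before the start. The Cish promoter (chr9:107296409-107296658, plus strand) and the Dusp6 promoter (chr10:99262981-99263230, plus strand) hold none.
Cish: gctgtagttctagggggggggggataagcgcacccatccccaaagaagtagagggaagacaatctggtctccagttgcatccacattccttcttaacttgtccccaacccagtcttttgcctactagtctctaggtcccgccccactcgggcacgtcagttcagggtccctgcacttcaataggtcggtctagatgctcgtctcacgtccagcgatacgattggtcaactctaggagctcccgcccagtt
Gzmb: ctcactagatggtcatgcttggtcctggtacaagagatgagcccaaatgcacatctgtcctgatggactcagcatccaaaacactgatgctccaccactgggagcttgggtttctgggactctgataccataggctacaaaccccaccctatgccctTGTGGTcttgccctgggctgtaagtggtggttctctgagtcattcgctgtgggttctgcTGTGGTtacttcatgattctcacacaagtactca
Dusp6: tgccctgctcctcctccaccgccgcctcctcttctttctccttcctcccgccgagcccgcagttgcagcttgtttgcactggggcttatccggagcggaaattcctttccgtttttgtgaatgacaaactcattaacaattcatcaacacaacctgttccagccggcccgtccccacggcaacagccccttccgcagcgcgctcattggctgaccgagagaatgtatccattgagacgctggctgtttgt

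Shared peaks lay at Lat, the adaptor of T-cell receptor signalling, Batf, an AP-1 family factor, and Il2ra, a chain of the interleukin-2 receptor (CD25). The Batf promoter (chr12:85686470-85686719, plus strand) holds 2 copies, starting 149 and 56 bases before the start. The Lat promoter (chr7:126369569-126369818, minus strand) and the Il2ra promoter (chr2:11642542-11642791, plus strand) hold none of this exact form.
Lat: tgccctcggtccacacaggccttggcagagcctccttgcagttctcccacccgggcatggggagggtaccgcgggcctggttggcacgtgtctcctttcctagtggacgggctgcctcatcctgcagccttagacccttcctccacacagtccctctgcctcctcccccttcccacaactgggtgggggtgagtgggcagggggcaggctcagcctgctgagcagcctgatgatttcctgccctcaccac
Batf: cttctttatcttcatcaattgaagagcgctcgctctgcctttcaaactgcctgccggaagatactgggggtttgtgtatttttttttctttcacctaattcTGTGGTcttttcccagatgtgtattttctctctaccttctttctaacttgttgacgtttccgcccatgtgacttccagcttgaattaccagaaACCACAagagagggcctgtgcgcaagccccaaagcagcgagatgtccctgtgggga
Il2ra: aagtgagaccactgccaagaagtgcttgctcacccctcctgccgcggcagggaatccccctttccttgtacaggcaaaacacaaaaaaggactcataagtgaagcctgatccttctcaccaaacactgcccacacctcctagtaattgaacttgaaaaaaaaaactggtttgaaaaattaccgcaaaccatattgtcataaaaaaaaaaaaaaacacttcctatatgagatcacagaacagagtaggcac

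TGTGGT stood in a smaller share of the promoters of genes with a promoter peak than of all RefSeq promoters. Of the genes with a promoter peak, 81.0% (Scid.adh.2c2-only), 80.6% (ILC2/b6-only) and 82.7% (shared) matched the RefSeq table. On either strand it stood in 12.6% of the 1434 promoters of genes with a Scid.adh.2c2-only promoter peak. The share was 12.3% of 1855 for ILC2/b6-only and 10.9% of 4239 for shared promoter peaks, against 14.05% of all 32851 RefSeq promoters. The matched genes numbered 1103, 1355 and 3315. Every promoter of such a gene was counted, whether or not the peak lay at it, so these are not shares of bound starts. The promoters of these genes were richer in G and C, with medians of 60%, 59.2% and 62% against 52.4%. These 250-base windows are not the peaks themselves, whose sequence was not read here.

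The lists overlapped in 6924 peaks, each paired with 1 peak of the other line. They were 50.7% of the Scid.adh.2c2 list and 26.4% of the ILC2/b6 list, leaving 6740 peaks in Scid.adh.2c2 only and 19334 in ILC2/b6 only. The ILC2/b6 list was 1.92 times as long. A similar gap in length stood between the Runx3 lists, with 20523 peaks in Scid.adh.2c2 and 44938 in ILC2/b6, of which 60.4% and 27.6% were shared. Equal list lengths changed the count: the 13664 highest-scoring peaks of each line shared 3923, 28.7% of each list. Peaks with a score of at least 30 in both lists shared 2423, 43.1% of those left in Scid.adh.2c2.

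Place in the genome separated the classes. Of the shared peaks, 58.8% lay in HOMER's promoter class, against 20.5% of the Scid.adh.2c2-only peaks (95% Wilson interval 19.6 to 21.5%) and 9.03% of the ILC2/b6-only peaks (8.63 to 9.44%). These intervals cover counting error only. Introns held 36.2% of the Scid.adh.2c2-only peaks, 48.6% of the ILC2/b6-only peaks and 19.2% of the shared peaks. Intergenic regions held 38.3%, 38.4% and 16.8%. The median distance to the nearest transcription start site (TSS) was 14824 bp for Scid.adh.2c2-only peaks, 19160.5 bp for ILC2/b6-only peaks and 154 bp for shared peaks. The order of both line-only classes turned round, to 23523 and 20285 bp, without the line-only peaks that met a Runx3 peak of the other line. Promoter peaks were shared more often than distant ones: 74.6% of the Scid.adh.2c2 promoter peaks and 70.0% of the ILC2/b6 promoter peaks were shared, against 34.7% and 13.99% of the other peaks. With equal-length lists the shares were 36.6% of the Scid.adh.2c2 promoter peaks and 76.3% of the ILC2/b6 promoter peaks, against 23.5% and 17.4% of the others, so most Scid.adh.2c2 promoter peaks were then not shared.

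**Figure D1:**
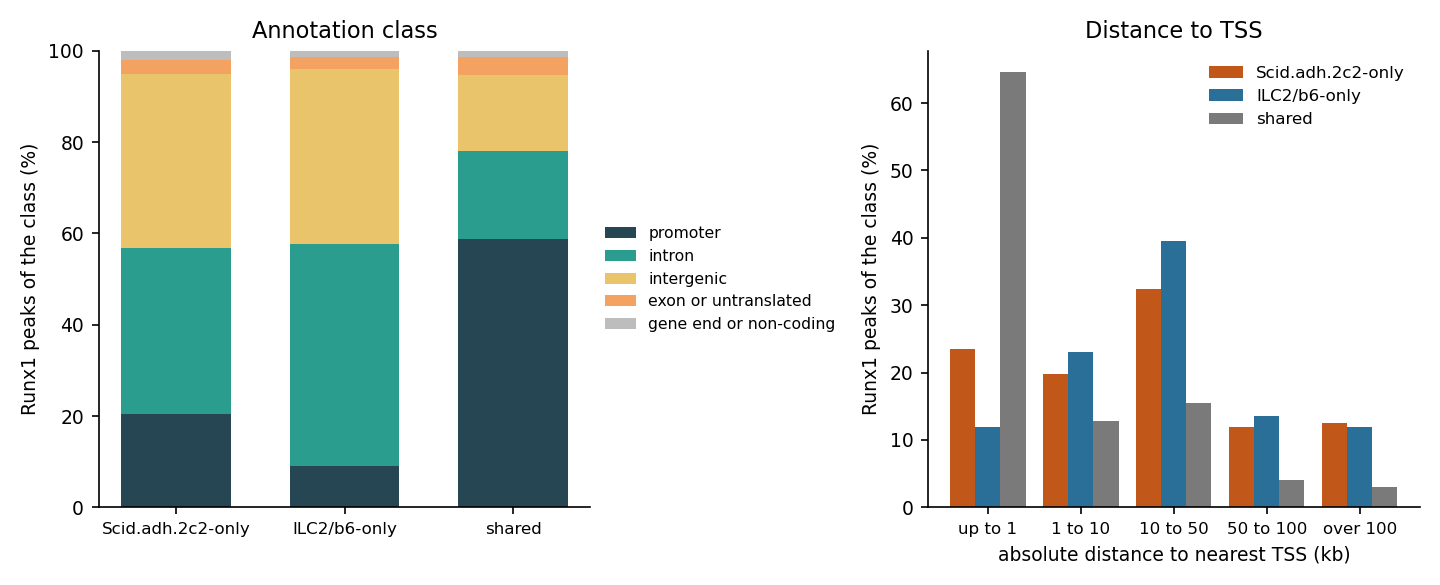
Share of Runx1 peaks by annotation class (left, stacked to 100%) and by absolute distance to the nearest TSS (right, kb) for Scid.adh.2c2-only, ILC2/b6-only and shared peaks, the shared ones as the Scid.adh.2c2 list annotates them. Within 1 kb of a TSS lay 23.5%, 11.9% and 64.5% of the peaks, and at 10 to 50 kb 32.4%, 39.6% and 15.6%.

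The repeats under the distant peaks differed between the lines in some classes. Outside promoters, LTR elements held 8.87% of the Scid.adh.2c2-only peaks, 8.29% of the ILC2/b6-only peaks and 5.61% of the shared peaks. LINE elements held 3.45%, 5.25% and 2.77%, and DNA transposons 1.14%, 2.66% and 0.631%. CpG islands outside promoters held 2.37%, 1.51% and 9.54%. Ribosomal and other small RNA repeats held 34 of the shared peaks. Peaks over such multi-copy sequence, and over the near-identical genes Dynlt1b and Dynlt1f, depend on how reads of several origins were placed.

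Higher-scoring peaks were shared more often, except that the top group of ILC2/b6 promoter peaks (73.8%) lay below the group before it (77.6%). Sharing at distant sites was lower in every group. Each list was cut into 4 equal groups by score. In the lowest group of the Scid.adh.2c2 list 52.7% of the promoter peaks and 25.5% of the other peaks were shared, and in the top group 92.1% and 44.3%. In the lowest group of the ILC2/b6 list 59.0% of the promoter peaks and 9.53% of the others were shared, and in the top group 73.8% and 20.9%. The median score of line-only peaks was 23.7 in Scid.adh.2c2 and 30.5 in ILC2/b6, and that of shared peaks 29.2 in the Scid.adh.2c2 list and 33.7 in the ILC2/b6 list. Scores are the authors' and are compared only within a list. Over the 6924 shared peaks, the ranks of the scores in both lists had a Spearman rho of 0.38, across peaks that are not independent.

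**Figure D2:**
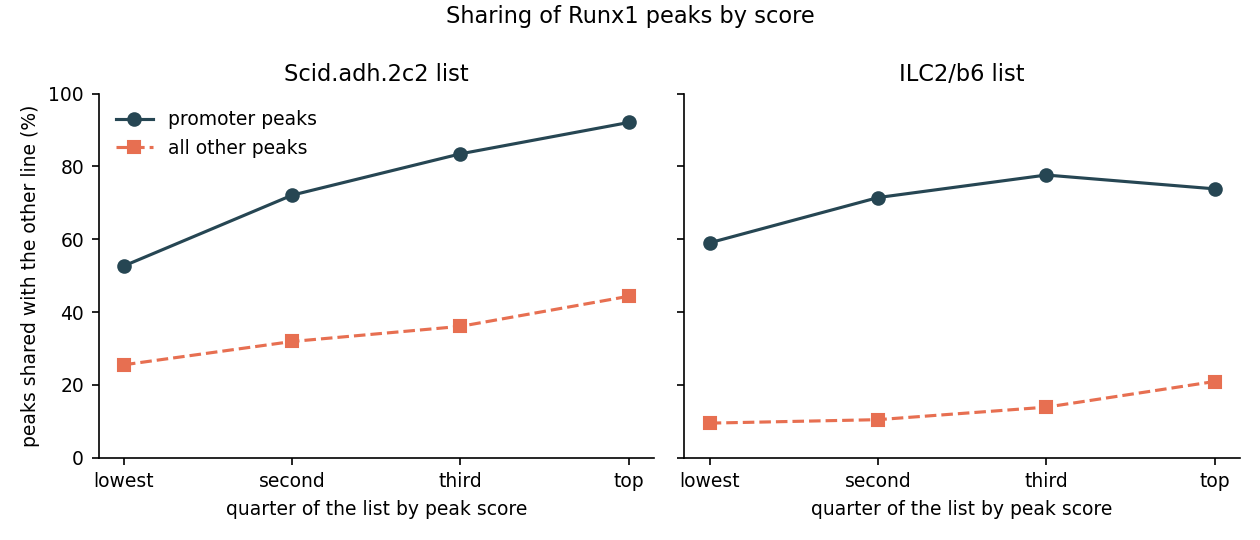
Share of Runx1 peaks found in the other line (%), by score group of each list (4 equal groups), for promoter peaks (circles) and all other peaks (squares), with Scid.adh.2c2 left and ILC2/b6 right. In the top group of the Scid.adh.2c2 list 92.1% of promoter peaks were shared, and in ILC2/b6 at most 20.9% of the other peaks of a group were.

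The strongest line-only peaks included some near genes of T cells or cytokine signalling and others far from a TSS. The Scid.adh.2c2-only peak at chr11:52127761-52128013 (mm9, score 250.4) lay 31.4 kb upstream of the TSS of Tcf7, a T-cell transcription factor, and also carried Runx3, Bcl11b and GATA3 peaks. Another at chr1:139703486-139703738 (score 371.2) lay 159 kb from Mir181a-1, a microRNA gene known from thymocytes. The highest-scoring one, at chr3:94719870-94720122 (score 462.9), lay in an LTR element 17.0 kb upstream of Selenbp1. Among ILC2/b6-only peaks, one at chr9:107215215-107215479 (score 532.2) lay 16.4 kb downstream of the TSS of Cish. The highest-scoring one lay in an intron of Myo16, and another in the intron before it, at chr8:10499850-10500114 (score 846.5) and chr8:10480867-10481131 (score 594.2), both over 300 kb from its TSS. A strong shared peak at chr14:54847113-54847365 (score 441.4 in Scid.adh.2c2 and 549.4 in ILC2/b6) lay 26.4 kb from the TSS of Dad1, the gene beside the T-cell receptor alpha locus.

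Runx3 peaks overlapped most Runx1 peaks. Such an overlap does not show that both proteins were bound, and whether the antibodies told the Runx proteins apart was not tested here. Runx3 peaks of the same line overlapped 94.7% of the Scid.adh.2c2-only Runx1 peaks and 89.9% of the ILC2/b6-only peaks, and 95.1% and 94.8% of the shared peaks. Runx3 peaks of the other line overlapped 36.4% of the Scid.adh.2c2-only peaks and 7.67% of the ILC2/b6-only peaks. At promoters these shares were 70.8% and 25.7%, and elsewhere 27.5% and 5.88%. Hence 2453 Scid.adh.2c2-only and 1482 ILC2/b6-only Runx1 peaks had a Runx3 peak, but no Runx1 peak, in the other line.

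Bcl11b and GATA3 met Runx1 to different degrees in the lines. Bcl11b peaks of the same line overlapped 76.2% of the Scid.adh.2c2-only and 55.3% of the ILC2/b6-only Runx1 peaks, and 83.8% and 67.8% of the shared ones. GATA3 peaks overlapped 24.6% of the Scid.adh.2c2-only and 40.4% of the ILC2/b6-only peaks, and 17.1% and 21.0% of the shared ones. Because GATA3 peaks were seldom at promoters (2.70% of its Scid.adh.2c2 list and 4.09% of its ILC2/b6 list), the share was also taken elsewhere, where it was 29.6% for Scid.adh.2c2-only, 42.9% for ILC2/b6-only, and 34.0% and 40.2% for shared peaks. At distant sites Bcl11b and GATA3 together lay on 24.1% of Scid.adh.2c2-only and 29.1% of ILC2/b6-only peaks, Bcl11b without GATA3 on 51.8% and 26.4%, and GATA3 without Bcl11b on 5.53% and 13.8%. The lists compared differ in length (17874 and 21677 Bcl11b peaks, 36973 and 33709 GATA3 peaks). Among the equal-length Runx1 lists, GATA3 lay on 20.4% of the Scid.adh.2c2-only and 49.0% of the ILC2/b6-only peaks, and Bcl11b on 78.1% and 73.0%, so that the gap in GATA3 was wider and the gap in Bcl11b much narrower than in the full lists.

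**Figure D3:**
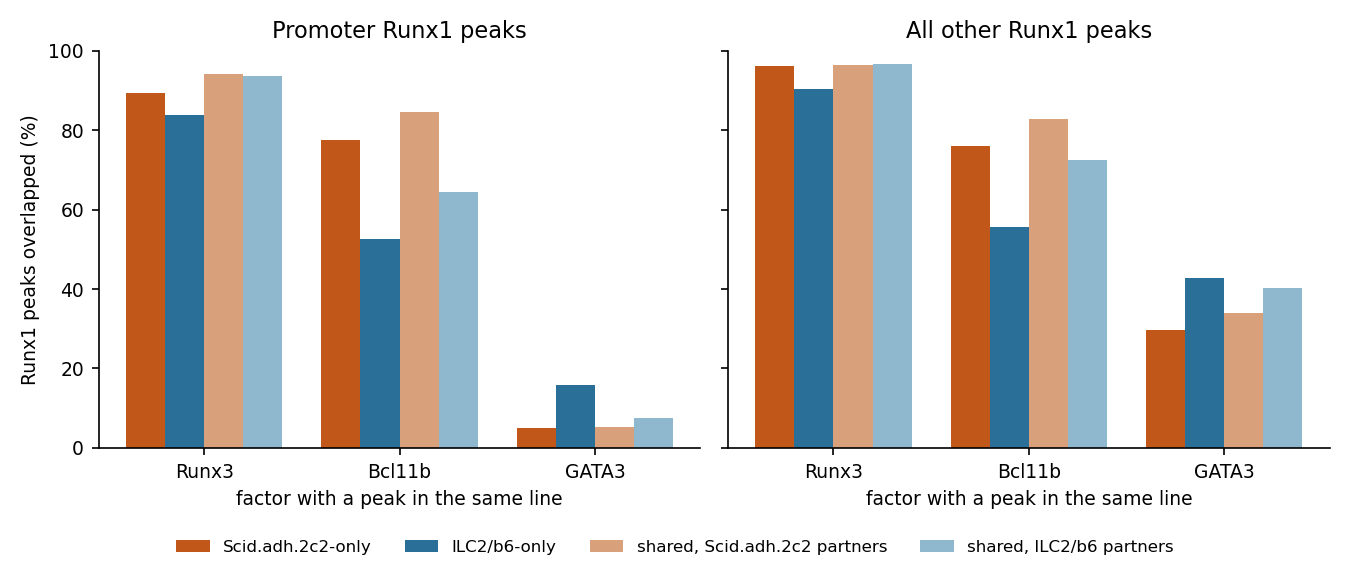
Share of Runx1 peaks (%) that overlap a Runx3, Bcl11b or GATA3 peak of the same line, at promoters (left) and elsewhere (right), for Scid.adh.2c2-only, ILC2/b6-only and shared peaks, the last set against each line's own lists. Away from promoters Bcl11b covered 75.9% and GATA3 29.6% of Scid.adh.2c2-only peaks, against 55.5% and 42.9% of ILC2/b6-only peaks.

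Runx peaks crowded more on single genes in ILC2/b6. A gene with at least 1 Runx1 peak had 1.56 on average in Scid.adh.2c2 and 2.43 in ILC2/b6, and the most on a gene was 22 and 41. At least 5 peaks stood at 283 genes (3.29%) in Scid.adh.2c2 and at 1308 (12.3%) in ILC2/b6. Of 24475 genes, 8597 had a peak in Scid.adh.2c2 and 10665 in ILC2/b6. The 6700 genes with a peak in both were 77.9% of those in Scid.adh.2c2 and 62.8% of those in ILC2/b6. A shared peak nearly always makes its gene shared, and peaks at different sites of a gene do so too. A larger share of genes than of peaks was therefore favoured by the count. Cxcr4, the receptor of the chemokine Cxcl12, had peaks in both lines, with 12 Scid.adh.2c2-only peaks, 13 ILC2/b6-only peaks and 1 shared peak. Nearest genes are those of the authors' annotation, and the gene nearest to a peak need not be its target.

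Genes with the most line-only peaks included lineage genes, silent genes and microRNAs. In ILC2/b6 they included Maf, a factor of type 2 lymphocytes, with 30 peaks between 139 kb upstream and 617 kb downstream of its TSS, and 28 of these had a Runx3 peak. In control libraries Maf stood at 0.025 and 0.024 RPKM in Scid.adh.2c2, against 44.4 and 43.9 RPKM in ILC2/b6. Inpp4b, a phosphoinositide phosphatase, had 31 ILC2/b6-only peaks, 30 of them in introns, with 0.010 and 0 RPKM in Scid.adh.2c2 and 7.29 and 8.13 RPKM in ILC2/b6. Fam46a had 24, with 0.034 and 0 RPKM in Scid.adh.2c2 and 80.6 and 87.2 RPKM in ILC2/b6. Elmo1, a regulator of cell migration, had 28 and was expressed in both lines, at 8.57 and 8.61 RPKM in Scid.adh.2c2 and 33.8 and 34.8 RPKM in ILC2/b6. Silent or nearly silent genes also stood among the 10 with the most ILC2/b6-only peaks. H2afy3 had the most, 39, with 0.168 and 0.074 RPKM in ILC2/b6. Mir6388 had 31 and Gm17746 26, both at 0 RPKM in ILC2/b6. In Scid.adh.2c2, of the 10 genes with the most line-only peaks, Dynlt1f and Cxcr4 were the ones above 1 RPKM in its control libraries. Efna5, an ephrin, had 13 Scid.adh.2c2-only peaks and 0.018 and 0.011 RPKM in Scid.adh.2c2, and Sall1, a zinc finger factor, had 11 and was at 0 RPKM in all 4 control libraries. The shared peaks were most numerous at Rn4.5s and Pabpc2 (9 each), followed by Gm17746 and Sept9 (8 each), Chd7 (7) and Runx1 itself (6).

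The Runx genes were themselves bound and differed between lines. In control libraries Runx1 stood at 19.4 and 21.3 RPKM in Scid.adh.2c2, against 2.73 and 3.09 RPKM in ILC2/b6. Runx3 ran the other way, at 3.07 and 3.28 RPKM in Scid.adh.2c2 against 46.5 and 42.9 RPKM in ILC2/b6. Runx2, better known from bone, had 0.004 and 0 RPKM in Scid.adh.2c2 and 5.96 and 5.75 RPKM in ILC2/b6, and Cbfb had 46.2 and 49.0 RPKM in Scid.adh.2c2 and 77.9 and 79.3 RPKM in ILC2/b6. The line with less Runx1 mRNA thus had the longer Runx1 list. Runx1 and Runx2 have different transcript models in the deposited tables (as do Cpsf4l, Slfn8, Arpp21, Prr5l and Cd247), so the model also enters their levels across lines. In such bulk samples, fewer expressing cells and less RNA per cell cannot be told apart.

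Runx1 carried 5 Scid.adh.2c2-only, 15 ILC2/b6-only and 6 shared peaks. Shared peaks lay at 2 of its starts, 55 bp downstream of one TSS (chr16:92826138-92826390, score 137.9) and 858 bp upstream of another (chr16:92698306-92698558, score 18.5). Its strongest line-only peak was an intronic one of ILC2/b6 at chr16:92621062-92621326 (score 211.3), 76.4 kb downstream of the TSS. Runx3 carried 4, 11 and 2, with a shared promoter peak at chr4:134676277-134676529 (score 225.2). At its strongest ILC2/b6-only peak, chr4:134636388-134636652 (score 223.3), 40.0 kb upstream, a Scid.adh.2c2-only peak lay close by, at chr4:134635854-134636106 (score 18.5). Runx2 carried 0, 12 and 1, and Cbfb 0, 2 and 1.

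In the control libraries, genes with peaks of 1 line only were on median more highly expressed in that line. The RPKM tables were deposited separately for each line, so the difference in mean log2(RPKM + 0.5), Scid.adh.2c2 minus ILC2/b6, is given without a test. Over the 11229 genes that reached 1 RPKM in 2 or more control libraries, the median difference was 0.31. It was 0.89 for the 993 genes whose Runx1 peaks were all Scid.adh.2c2-only, and -0.67 for the 1971 whose peaks were all ILC2/b6-only. For the 2320 genes with shared peaks alone it was 0.45, and for 2514 genes with none 0.41. At least 2-fold higher in Scid.adh.2c2 were 44.3% of the first group, against 20.6% of all genes, and at least 2-fold higher in ILC2/b6 were 46.5% of the second, against 20.1% of all genes. The median level of the first group was 10.8 and 11.4 RPKM in the Scid.adh.2c2 libraries and 5.33 and 5.28 RPKM in the ILC2/b6 libraries. That of the second was 3.45 and 3.52 RPKM in Scid.adh.2c2 and 8.73 and 8.84 RPKM in ILC2/b6. Of the genes of each group, 55.5% and 50.97% passed the filter, so these medians do not describe the unexpressed rest. Without the filter on low values the medians were 0.54 and -0.22, and with each library centred on its median 0.73 and -0.83. The equal-length lists gave 0.63 and -1.90.

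The difference was larger at genes with more line-only peaks, except in the last Scid.adh.2c2 group of 3 genes. Only genes that reached 1 RPKM in 2 or more control libraries were counted. Silent genes with many peaks are thus left out, such as Efna5 (13 Scid.adh.2c2-only peaks) and Mir6388 (31 ILC2/b6-only peaks). A gene silent in 1 line passed this filter only through its level in the other. Among genes without ILC2/b6-only peaks, the median was 0.72 for those with 1 Scid.adh.2c2-only peak (1049 genes), 1.35 for 2 (192 genes), 1.86 for 3 to 4 (75 genes) and 3.05 for 5 to 9 (28 genes) and 2.54 for 10 or more (3 genes, 1 of them at least 2-fold higher in ILC2/b6). Of the 28 genes, 96.4% were at least 2-fold higher in Scid.adh.2c2. Among genes without Scid.adh.2c2-only peaks, the median was 0.15 for 1 ILC2/b6-only peak (1704 genes), -0.27 for 2 (752 genes), -0.89 for 3 to 4 (599 genes), -2.39 for 5 to 9 (348 genes) and -3.51 for 10 or more (77 genes). Of the 77 genes, 83.1% were at least 2-fold higher in ILC2/b6 and none was 2-fold higher in Scid.adh.2c2.

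**Figure D4:**
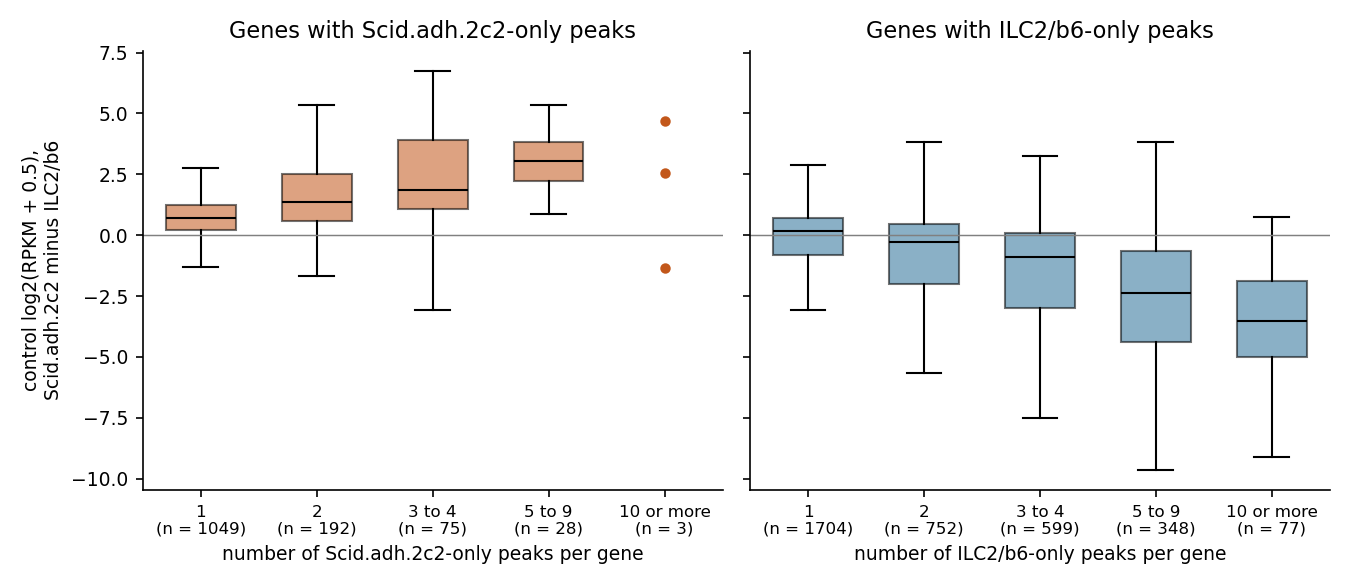
Difference in control log2(RPKM + 0.5), Scid.adh.2c2 minus ILC2/b6, by number of Scid.adh.2c2-only peaks (left) or ILC2/b6-only peaks (right) per gene. Genes with line-only peaks of the other line are left out, as are those that did not reach 1 RPKM in 2 or more control libraries. Boxes show median and quartiles, whiskers reach the last gene within 1.5 box lengths, and single points replace the box where 3 genes were left; the medians go up to 3.05 at 5 to 9 Scid.adh.2c2-only peaks and down to -3.51 at 10 or more ILC2/b6-only peaks.

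Genes were also grouped by where a peak of each class lay, whatever other peaks they had. Genes with a Scid.adh.2c2-only promoter peak had a median difference of 0.60, those with an ILC2/b6-only promoter peak -0.48 and those with a shared promoter peak 0.38. At least 2-fold higher in Scid.adh.2c2 were 31.2%, 10.1% and 17.0% of them, and at least 2-fold higher in ILC2/b6 were 8.07%, 43.3% and 9.59%. For genes with such a peak outside promoters the medians were 0.57, -0.10 and 0.12, so the ILC2/b6-only difference was smaller there than at promoters, with 31.8% at least 2-fold higher in ILC2/b6. Nearly all genes with a shared promoter peak (95.3%) passed the expression filter.

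Single genes with peaks of 1 line only stood far apart in expression. Among those higher in Scid.adh.2c2, Dtx1, a Notch-induced ubiquitin ligase, had 106 and 120 RPKM in Scid.adh.2c2 against 0.209 and 0.184 RPKM in ILC2/b6, with 2 intronic Scid.adh.2c2-only peaks 23.0 and 25.8 kb downstream of its TSS. Ptcra, the invariant chain of the pre-T-cell receptor, had 31.6 and 31.1 RPKM in Scid.adh.2c2 and 0 in both ILC2/b6 libraries, with 1 peak 4.37 kb upstream. Cd3g, a chain of the CD3 complex, had 136 and 130 RPKM in Scid.adh.2c2 against 0.765 and 0.954 RPKM in ILC2/b6, with 1 peak at its promoter. Sox4, an HMG-box factor of early lymphocytes, had 61.9 and 61.0 RPKM in Scid.adh.2c2 against 0.252 and 0.262 RPKM in ILC2/b6, with 5 peaks. The other 6 genes of this kind were Irx1, Dsc2, Cpsf4l, Vgll1, Pdlim4 and Fam169b.

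Among those higher in ILC2/b6, Il5, the eosinophil growth factor, had 1.06 and 0.490 RPKM in Scid.adh.2c2 against 2671 and 2869 RPKM in ILC2/b6, with 3 ILC2/b6-only peaks, one of them 854 bp upstream of its TSS. Areg, an epidermal growth factor family ligand made by ILC2, had 0.170 and 0.024 RPKM in Scid.adh.2c2 against 476 and 470 RPKM in ILC2/b6, with 5 peaks. Gzmb had 5.01 and 2.07 RPKM in Scid.adh.2c2 against 4736 and 4910 RPKM in ILC2/b6, with 7 peaks. The milk protein genes Csn2 and Csn1s1 were at 1.04 and 0.322 and at 1.98 and 0.432 RPKM in Scid.adh.2c2, and at 3176 and 3588 and at 3305 and 3450 RPKM in ILC2/b6, with 1 and 3 ILC2/b6-only peaks. Vim, Tph1, Ctla2a, Tmsb4x and Mcpt8 completed the 10 largest differences on this side.

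**Figure D5:**
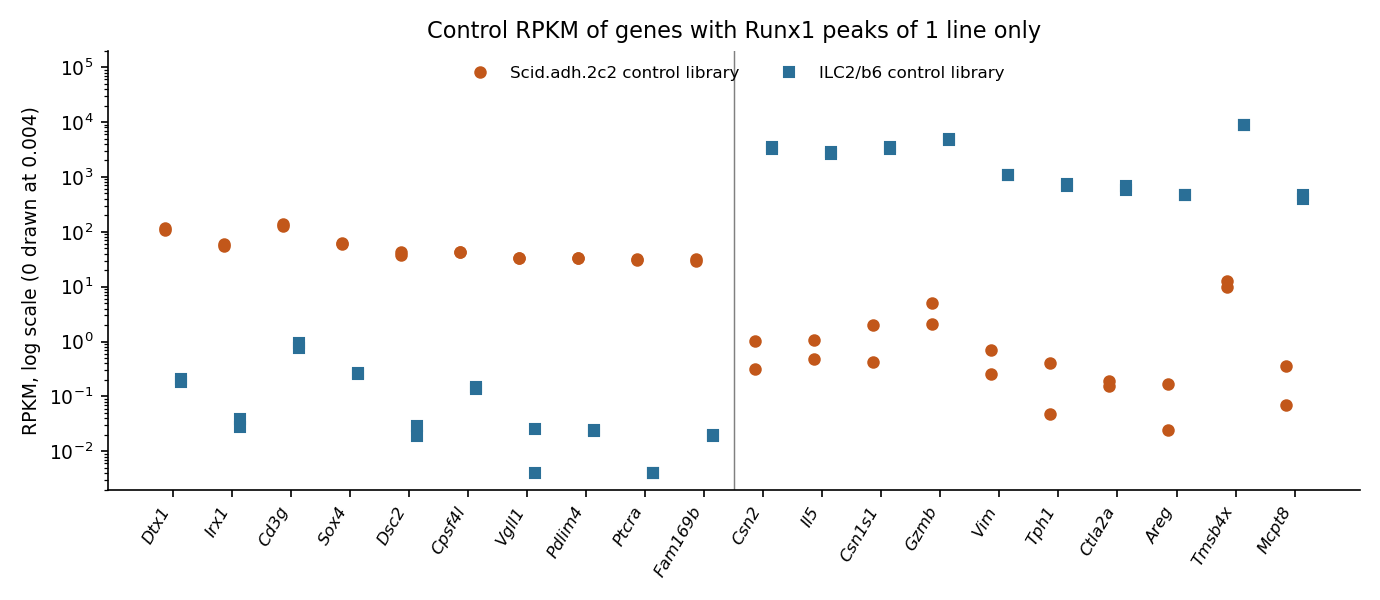
Control RPKM per library (log axis, 0 drawn at 0.004) of the 20 genes with Runx1 peaks of 1 line only and the largest differences between lines, in Scid.adh.2c2 (circles) and ILC2/b6 (squares); left of the line the 10 genes higher in Scid.adh.2c2, right of it the 10 higher in ILC2/b6. All 10 genes on the left had Scid.adh.2c2-only peaks and all 10 on the right ILC2/b6-only peaks.

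Those 20 genes were ranked by expression alone, and in each the line of the peaks was the line of the higher level. Over all genes, 17.4% had a Scid.adh.2c2-only peak and 31.2% an ILC2/b6-only peak, and ILC2/b6-only peaks were 2.87 times as many, which is the background for the gene lists. Of 24 T-lineage factors, 22 had a Scid.adh.2c2-only peak and 18 an ILC2/b6-only peak (68 and 87 peaks, a ratio of 1.28), and the median difference in expression was 1.51. Tcf7 had 5 Scid.adh.2c2-only, 1 ILC2/b6-only and 1 shared peak, with 389 and 390 RPKM in Scid.adh.2c2 against 0.209 and 0.095 RPKM in ILC2/b6. Gata3, used by both lineages, had 8, 8 and 3 peaks, with 54.0 and 57.0 RPKM in Scid.adh.2c2 and 146 and 151 RPKM in ILC2/b6. Of 25 genes of pre-TCR and TCR signalling, 16 had a Scid.adh.2c2-only and 12 an ILC2/b6-only peak (48 and 29 peaks, a ratio of 0.604), with a median difference of 4.47. Themis, a T-cell signalling adaptor, had 10 Scid.adh.2c2-only peaks and none of ILC2/b6 only, with 14.5 and 14.1 RPKM in Scid.adh.2c2 against 0.063 and 0.078 RPKM in ILC2/b6. Thy1 had 6 and none.

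The ILC2 lists had ratios above that of all peaks. Of 24 ILC2 factors and receptors, 9 had a Scid.adh.2c2-only and 20 an ILC2/b6-only peak (27 and 139 peaks, a ratio of 5.15), with a median difference of -3.14. Il1rl1, the receptor of IL-33, had 13 ILC2/b6-only peaks between 49.2 kb upstream and 5.24 kb downstream of its TSS and none in Scid.adh.2c2, with 0.156 and 0.049 RPKM in Scid.adh.2c2 against 306 and 339 RPKM in ILC2/b6. Rora had 9, 3 and 5 peaks of the Scid.adh.2c2-only, ILC2/b6-only and shared kind and was at 6.37 and 6.83 RPKM in Scid.adh.2c2, against 3.21 and 3.85 RPKM in ILC2/b6. Of 18 type 2 cytokine and effector genes, 7 had a Scid.adh.2c2-only and 16 an ILC2/b6-only peak (7 and 72 peaks, a ratio of 10.3), with a median of -4.99. Of 22 activation and signal feedback genes, 7 and 19 did (13 and 84 peaks, a ratio of 6.46), with a median of -4.06. Socs1, a feedback inhibitor of cytokine receptors, had 6 Scid.adh.2c2-only and 10 ILC2/b6-only peaks with 0.075 and 0.047 RPKM in Scid.adh.2c2 against 136 and 119 RPKM in ILC2/b6. Housekeeping genes, 16 in number, had 10 and 27 such peaks, 18 of the ILC2/b6-only ones at Ywhaz (a ratio of 2.70), and a median difference of 0.00. Not every list matched in this way. Adhesion and trafficking genes had a ratio of 1.94 and a median difference of -2.10, and NK and cytotoxic genes 2.56 and -2.06. Both ratios lay below the 2.87 of all peaks although the medians were higher in ILC2/b6. The 2 lists left were the Runx family (4.44 and -2.17) and progenitor and myeloid factors (2.25 and 0.77). The lists were chosen for the lineages compared and are not independent evidence of direction.

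At the promoters of the 183 listed genes peak line and expression line matched often but not always. A Scid.adh.2c2-only promoter peak stood at 33 genes, an ILC2/b6-only one at 34 and a shared one at 33. Of the first, 18 were at least 2-fold higher in Scid.adh.2c2 and 7 at least 2-fold higher in ILC2/b6. Of the second, 1 was higher in Scid.adh.2c2 and 26 in ILC2/b6. That 1 was Notch1, which also had a Scid.adh.2c2-only promoter peak. Over all genes with a Scid.adh.2c2-only promoter peak that passed the filter, the shares were 31.2% and 8.07%. With an ILC2/b6-only promoter peak they were 10.1% and 43.3%. The listed genes were chosen for the lineages compared, so their counts are not independent evidence of direction. Listed genes with a Scid.adh.2c2-only promoter peak included Rag1 (score 67.3), Hes1, Cd28, Lck, Cd3g, Cd3e, Tox, Themis and Thy1. Those with an ILC2/b6-only one included Cish (score 252.1), Gzmb, Arg1, Tnfrsf9, Il2rb, Il5, Areg, Il4, Il1rl1, Icos and Ctla4. Some promoters went against the RNA. Il13, a type 2 cytokine, had a Scid.adh.2c2-only peak 61 bp upstream of its TSS (chr11:53448139-53448391, score 28.2), with 2.21 and 0.816 RPKM in Scid.adh.2c2 against 4472 and 4406 RPKM in ILC2/b6. Its 7 ILC2/b6-only peaks lay elsewhere. Gzma had a Scid.adh.2c2-only promoter peak and 209 and 198 RPKM in Scid.adh.2c2, against 802 and 801 RPKM in ILC2/b6. It also had 2 ILC2/b6-only peaks, 3.96 and 1.14 kb upstream. Cxcr6, a chemokine receptor, had a Scid.adh.2c2-only peak 3 bp from its TSS (score 32.1), with 0.508 and 0.595 RPKM in Scid.adh.2c2 and 36.1 and 38.9 RPKM in ILC2/b6. Besides this peak, Cxcr6 had 2 ILC2/b6-only peaks and 1 shared peak.

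Genes near line-only Runx1 peaks were then set against the response to the Bcl11b guide, tested within each line. Bcl11b itself, the targeted gene, had 47.1 and 46.8 RPKM with the Bcl11b guide against 47.0 and 49.5 RPKM with the control guide in Scid.adh.2c2, and 7.04 and 7.24 RPKM against 6.85 and 6.33 RPKM in ILC2/b6. Its RNA passed the test in neither line (limma adjusted p = 0.455 and 0.278), so RNA level gives no check of the guide labels. In Scid.adh.2c2 limma on log2(RPKM + 0.5) called 57.8% of 10221 genes at a Benjamini-Hochberg adjusted p under 0.05, and of the 331 tested genes with 3 or more Scid.adh.2c2-only peaks 75.2%. Among the 1004 genes whose peaks were all Scid.adh.2c2-only, 26.7% rose and 33.3% fell, against 35.1% and 22.7% of all genes tested. At least 2-fold changes were called for 12.2% of these 1004 genes, against 8.43% of all genes, but the share was 11.9% for genes whose peaks were all ILC2/b6-only and 13.9% for those with all 3 kinds. By direction, 5.68% rose and 6.47% fell at least 2-fold, against 6.75% and 1.68% of all, and against 10.9% and 0.967% of the genes whose peaks were all ILC2/b6-only. Genes with no Runx1 peak gave 7.17% and 0.993%. A gene low with the control guide could enter the test through its guide libraries alone, and then had little room to fall. Direction is thus partly set by the control level, and its part was not tested. Genes whose peaks were all ILC2/b6-only rose in 41.1% and fell in 18.3% of 1344 cases in the same line. Without Bcl11b guide replicate 1 or 2 the calls over all genes numbered 3773 and 3700, against 5908 with both.

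In ILC2/b6 the guide changed fewer genes. The same test called 14.5% of 10526 genes, with 8.32% rising and 6.21% falling, and 27.3% of the 1636 genes with 3 or more ILC2/b6-only peaks. Among the 1949 genes whose peaks were all ILC2/b6-only, 14.01% rose and 9.54% fell. At least 2-fold changes were rare, at 1.23% of these genes (1.03% rose, 0.205% fell) against 0.599% of all genes (0.485% rose, 0.114% fell), and the share was 1.18% for genes with no Runx1 peak and 0.672% for those with 3 or more ILC2/b6-only peaks. Of the 763 genes whose peaks were all Scid.adh.2c2-only, 6.68% rose and 4.06% fell. The calls over all genes numbered 1530, and 933 and 779 without Bcl11b guide replicate 1 or 2, while among genes with at least 1 ILC2/b6-only peak they numbered 966, and 601 and 511. The genes compared were not matched for expression level or length, and the part of expression level in these shares was not tested. The test's p-values measure the spread between 2 libraries per group, which may be technical.

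Named by rule among genes with 3 or more Scid.adh.2c2-only peaks, Runx3 was one of the largest rises in Scid.adh.2c2, at 18.0 and 18.2 RPKM with the Bcl11b guide against 3.07 and 3.28 RPKM with the control guide (log2 fold change 2.34 ± 0.07 SE, limma adjusted p = 2.58e-07). The guide-treated libraries lay far above the controls. Gbp10, an interferon-inducible GTPase, had 284 and 281 RPKM against 29.9 and 26.6 RPKM (3.30 ± 0.06), and Nfib, Tuba8 and Slfn8 rose by 2.65, 2.51 and 2.34 on the log2 scale. The Gbp and Slfn genes have close paralogs, so the division of reads among them is uncertain. The largest falls were those of Stc1, Arhgef10l, Nectin1, Arpp21 and Endou. Arpp21, an RNA-binding protein gene of thymocytes, had 6 Scid.adh.2c2-only peaks, with 2.06 and 2.03 RPKM with the Bcl11b guide against 10.4 and 11.4 RPKM with the control guide (log2 fold change -2.16). The other 4 had log2 fold changes of -2.69 to -2.16.

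Among genes with 3 or more ILC2/b6-only peaks, changes in ILC2/b6 were smaller. Areg had 243 and 254 RPKM with the Bcl11b guide against 476 and 470 RPKM with the control guide (log2 fold change -0.93 ± 0.04 SE, limma adjusted p = 2.08e-05). Tff1, a trefoil peptide, had 75.97 and 67.3 RPKM against 158 and 133 RPKM (-1.01). Filip1, with 13 ILC2/b6-only peaks, Prr5l and Ptpn5 also fell, by 1.03, 1.17 and 0.93 on the log2 scale. Zfp36l2, an mRNA decay factor, had 137 and 129 RPKM against 61.5 and 59.2 RPKM (1.14 ± 0.04), and Cysltr2, a cysteinyl leukotriene receptor, 41.9 and 44.2 RPKM against 16.4 and 22.2 RPKM (1.15 ± 0.12). Pilrb1, Fndc3a and Tmem158 rose by 1.92, 1.16 and 1.15. Of the Runx genes, Runx2 fell in ILC2/b6 with the guide, at 4.50 and 4.58 RPKM against 5.96 and 5.75 RPKM (-0.33 ± 0.06, limma adjusted p = 0.012), while Runx1 did not pass the test in either line (-0.05 in Scid.adh.2c2 and -0.01 in ILC2/b6).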

How the data were processed

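ChIP-seq peaks (Runx1, Runx3, Bcl11b, GATA3) and RNA-seq of both lines were used; inputs and reads were not used here. The submitters' processing notes name Bowtie 1.1.1, HOMER, Trimmomatic, STAR 2.4.0, RSEM 1.2.25 and edgeR 3.6.8 with mm9 (NCBIM37). Each deposited list was annotated by HOMER on mm9 from an IDR set (peaks reproducible between libraries) named after 2 libraries, per the file headers. The deposited peak lists give HOMER's peak score, annotation and distance to the nearest TSS, per the file headers. The deposited RNA tables give RPKM per gene and library, per the file headers, 1 table per line. No source used here says which input belongs to which ChIP. The RNA kit does not mark strand, so antisense reads cannot be told apart.

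Peaks were compared by overlap of at least 1 bp. Gene names were missing for 8.24% of the Scid.adh.2c2 and 7.65% of the ILC2/b6 Runx1 peaks and were filled by RefSeq accession (2 and 4 stayed unnamed), and 98.4% and 98.6% of the peaks matched a gene of the RPKM tables. Shared peaks carry the gene named in the Scid.adh.2c2 list. Transcript models differed between the RPKM tables for 1526 of 24475 genes. Low RPKM steps gave 34.7 to 43.7 M reads per library (621 to 815 values tested per library, 100% whole within 0.1 read). The guide test was limma 3.58.1 (R 4.3.3) on log2(RPKM + 0.5) over genes that reached 1 RPKM in 2 or more libraries, with Benjamini-Hochberg adjustment over all genes and a threshold of 0.05. Overlaps, counts and figures used Python 3.11.15, pandas 2.3.3, scipy 1.17.1 and matplotlib 3.10.9, and the overlap and limma steps were tested on simulated data. Named genes were those with the most peaks of each class, the highest-scoring peaks, the Runx family, the members of each of 10 gene lists with the most peaks, the largest control differences among genes with peaks of 1 line only, and the largest guide responses among genes with 3 or more line-only peaks; further list members were named after their values were seen. Members and lists were chosen with earlier results of these data known. Alternatives changed the overlap rule, score minimum, list length, promoter definition, distance limit, pseudocount, filter, centring, motif and libraries used.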

Additional observations from a re-analysis of the deposited data

Results flagged for a closer look

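Of the 20 genes named for their guide response, 8 could be tested in both lines, and in all 8 the response differed between lines (limma interaction, Benjamini-Hochberg adjusted over 9147 genes, of which 4189 passed). The log2 response in Scid.adh.2c2 minus that in ILC2/b6 was 3.42 for Gbp10 (adjusted p = 2.06e-09), 2.78 for Tuba8 (5.3e-09), 2.37 for Runx3 (5.63e-09) and 2.37 for Slfn8 (1.33e-07). It was 2.5 for Cysltr2 (8.56e-07) and 2.25 for Ptpn5 (4.16e-06), and -0.715 for Fndc3a (0.00522) and -1.45 for Zfp36l2 (7.14e-08). The tables were deposited separately, but each response was formed within its own table. These genes were chosen for a large response in 1 line, so a difference between lines was favoured by the choice.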

How the results depend on the processing

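No control difference or guide response changed sign, but the order of the line-only median distances turned round without the peaks that met a Runx3 peak of the other line. With promoters taken as up to 1 kb from a TSS, promoter shares were 23.5% (Scid.adh.2c2-only), 11.9% (ILC2/b6-only) and 64.5% (shared). With an overlap of 50% of the shorter interval, promoter shares were 22.7% and 9.98% (Scid.adh.2c2-only and ILC2/b6-only), GATA3 overlaps 20.95% and 37.2%, and the Scid.adh.2c2-only median distance 13316 bp. With gaps of up to 1 kb counted as shared, promoter shares were 17.9%, 8.02% and 57.6% (shared last), distances 16887, 20297.5 and 167 bp, and GATA3 overlaps 35.9% and 51.7%. At scores of at least 20, peaks per gene were 1.45 and 2.27, promoter shares 23.8% and 10.4%, distances 13103 and 18536 bp, the ILC2/b6-only GATA3 overlap 42.9% and control differences 0.81 and -0.36. At scores of at least 30, 2423 peaks were shared, peaks per gene were 1.33 and 2.07, promoter shares 24.7%, 12.01% and 53.4%, distances 12830, 17732 and 232 bp, GATA3 overlaps 27.2% and 46.4%, and the ILC2/b6-only control difference -0.34. With lists of equal length, 3923 peaks were shared, ILC2/b6 had 2.06 peaks per gene, promoter shares were 35.5%, 6.36% and 50.9%, distances 5825, 20570 and 318 bp, GATA3 overlaps 20.4% and 49.0%, and control differences 0.63 and -1.90. Leaving out line-only peaks with a Runx3 peak of the other line, an alternative chosen after seeing the data, gave promoter shares of 9.42% and 7.27%, distances of 23523 and 20285 bp, GATA3 overlaps of 28.1% and 41.3%, and a Scid.adh.2c2-only control difference of 1.31. Peaks within 50 kb gave 1.41 and 2.06 peaks per gene and 154 guide calls among Scid.adh.2c2 genes with 3 or more own line-only peaks. The Scid.adh.2c2-only control difference was 0.81 with a pseudocount of 1 and 0.73 after median-centring; without the filter the differences were 0.54 and -0.22. The longer motif TGTGGTT stood in 4.40% of all promoters and in 3.70%, 3.94% and 3.42% of those of genes with Scid.adh.2c2-only, ILC2/b6-only and shared promoter peaks. The cause of these changes was not tested.

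Without the filter, ILC2/b6 guide calls were 400 (genes with an own line-only peak), 197 (3 or more) and 615 (all). Leaving out 1 library gave 1232 to 1974, 199 to 255 and 3700 to 6803 calls in Scid.adh.2c2, and 511 to 1272, 255 to 536 and 779 to 2199 in ILC2/b6; control differences stayed at 0.85 to 0.92 and -0.67 to -0.65. Same-numbered libraries correlated at 0.037 in Scid.adh.2c2 and 0.106 in ILC2/b6, over 2 pairs each, too few to tell whether they were paired. With a replicate block the calls were 1780, 249 and 5921 in Scid.adh.2c2 and 1341, 573 and 2258 in ILC2/b6. Without the block they were 1801, 249 and 5908 in Scid.adh.2c2 and 966, 446 and 1530 in ILC2/b6. With 1 peak list per line and unknown ChIP depth, no share of peaks has a replicate error.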

Other observations

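Among genes with Scid.adh.2c2-only peaks alone that were far higher in Scid.adh.2c2, several also fell with the Bcl11b guide there. Dtx1 had 33.1 and 32.4 RPKM with the Bcl11b guide against 106 and 120 RPKM with the control guide (log2 fold change -1.77, limma adjusted p = 5.15e-07), and Ptcra 7.96 and 7.88 RPKM against 31.6 and 31.1 RPKM (-1.92). Dsc2, Cpsf4l, Pdlim4, Fam169b, Vgll1 and Sox4 fell as well, with log2 fold changes of -1.84, -1.76, -1.54, -1.14, -1.03 and -0.77, Irx1 by 0.16, while Cd3g rose by 0.26. Of all tested genes whose peaks were all Scid.adh.2c2-only, 33.3% fell, against 22.7% of all genes tested. These 10 genes were chosen for a high level in the control libraries, which are also the baseline of the guide test, so falls were favoured by the choice.

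In Scid.adh.2c2, ILC2 and effector genes moved both ways with the guide. Of 14 ILC2 factors and receptors tested 7 rose and 5 fell, and of 9 type 2 cytokine and effector genes 7 rose and 1 fell. Of 12 NK and cytotoxic genes 10 rose and 1 fell, against 35.1% and 22.7% of all genes tested. Some of these genes entered the test through their guide libraries alone, which left them little room to fall. Prf1 had 0.089 and 0.014 RPKM with the control guide and 2.73 and 2.50 RPKM with the Bcl11b guide. Lif had 0.234 and 0.137 RPKM, then 2.69 and 2.96 RPKM. Rises were thus favoured by the entry rule, and its part in these counts was not tested. Tmsb4x, with 7 ILC2/b6-only peaks, had 127 and 130 RPKM with the Bcl11b guide against 12.6 and 9.83 RPKM with the control guide in Scid.adh.2c2 (log2 fold change 3.47, limma adjusted p = 2.64e-07). Cxcr6 had 11.1 and 11.1 RPKM against 0.508 and 0.595 RPKM (3.47), Il13 7.65 and 8.43 RPKM against 2.21 and 0.816 RPKM (2.18), and Rora 20.8 and 20.1 RPKM against 6.37 and 6.83 RPKM (1.56). Il10 fell, at 1.08 and 1.26 RPKM against 4.56 and 4.39 RPKM (-1.58), as did Gzma (-0.99) and Il7r (-0.92). These genes were chosen after their values were seen.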
